A study of Mus musculus with 12 samples.

Results

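G1ME cells carrying a GATA1 construct were compared with G1ME cells carrying the empty vector 18 h after transduction. The comparison uses 3 arrays of each kind, chosen by their titles, which are 6 of the 12 arrays in the series. The remaining 6 arrays hold the same kinds of cells at 42 h and enter here through the shared estimate of the spread and in a comparison of the effects at the 2 times. G1ME is an established murine line of progenitors of megakaryocytes and red cells, and its label calls it Gata1-negative. Both groups thus carry the same Gata1 defect, and both received a MIGR1-GFP retrovirus, so that GFP-positive cells could be collected by FACS. The vector group received MIGR1-GFP alone and the GATA1 group the same kind of virus with GATA1. Everything was measured in 1 cell line. The design calls the triplicates biologic, but the labels do not say which culture each came from, so the p-values measure the spread between these arrays.

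GATA1 is a zinc finger transcription factor that binds DNA at GATA sequences. It works with FOG1 (Zfpm1) and with a complex of SCL (Tal1), LMO2, LDB1 and E proteins, and erythroid and megakaryocytic precursors need it to mature. It is known to activate genes for globins, heme synthesis and the red cell membrane, and to repress genes of progenitors and of myeloid and mast cells, Kit and Gata2 among them. The comparison at 18 h asks which genes had already changed early after GATA1 was supplied.

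Promoters of 5 genes that rose are shown, and their RefSeq windows hold a GATA hexamer before the start site. They were picked from the genes with that match, so they are examples and support nothing. All 5 are genes of red cells or heme synthesis, and each stretch shown also holds CACCC. Tmcc2, Slamf1, Il1bos and Ces2g rose and hold a hexamer before a start too, but are not shown. Il1bos and Ces2g had no CACCC in the 250 bases before the start. Each stretch is the last 170 bases before the annotated start, 5′ to 3′ on the gene's strand, in build GRCm38.p6. Capitals mark a GATA hexamer, which is AGATAA or, with a T in first place, TGATAA, and also mark CACCC, the core of the sequence bound by Kruppel-like factors. A match on the opposite strand appears as its reverse complement. The last sequence belongs to Icam4, an adhesion molecule of red cells. The other genes encode the embryonic beta-like globin (Hbb-y), the erythroid factor KLF1, the erythropoietin receptor (Epor) and coproporphyrinogen oxidase (Cpox).
Hbb-y, chr7:103853208-103853377, strand -: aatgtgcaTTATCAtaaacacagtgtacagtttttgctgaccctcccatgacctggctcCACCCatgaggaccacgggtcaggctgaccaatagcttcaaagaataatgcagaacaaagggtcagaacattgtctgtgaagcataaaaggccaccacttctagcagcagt
Klf1, chr8:84901812-84901981, strand +: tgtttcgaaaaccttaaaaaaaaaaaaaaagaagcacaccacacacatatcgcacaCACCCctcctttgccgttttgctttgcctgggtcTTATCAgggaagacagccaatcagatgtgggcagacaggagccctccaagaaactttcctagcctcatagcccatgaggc
Epor, chr9:21963577-21963746, strand -: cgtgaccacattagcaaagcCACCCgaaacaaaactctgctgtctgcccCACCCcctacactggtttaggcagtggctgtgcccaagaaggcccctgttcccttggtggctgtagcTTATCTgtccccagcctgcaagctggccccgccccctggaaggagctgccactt
Cpox, chr16:58670038-58670207, strand +: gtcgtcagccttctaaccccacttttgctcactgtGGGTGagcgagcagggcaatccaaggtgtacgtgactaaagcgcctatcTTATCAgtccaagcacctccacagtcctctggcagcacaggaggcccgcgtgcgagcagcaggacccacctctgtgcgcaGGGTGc
Icam4, chr9:21029262-21029431, strand +: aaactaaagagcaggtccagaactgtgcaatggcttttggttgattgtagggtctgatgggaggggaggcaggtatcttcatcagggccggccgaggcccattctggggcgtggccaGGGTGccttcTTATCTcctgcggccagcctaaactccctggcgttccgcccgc
Over all genes tested, 8811 had a RefSeq promoter, giving 11232 windows from 250 bases before to 50 bases after a start. A GATA hexamer on either strand was in 10.8% of these windows. It was in 17.4% of the 132 windows of the genes that rose (23 windows) and in 9.30% of the 86 windows of the genes that fell (8 windows). CACCC on either strand was in 62.3% of all windows, in 72.0% of those of rising genes and in 64% of those of falling genes. Both were found together in 6.03%, 13.6% and 5.81% of the windows, respectively. These shares are descriptions of letters in a window, with no test, and do not show binding.

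The deposited values were alike in level. Median intensities ranged from 8.05 to 8.29, and the share of probe sets brighter than 100 from 29.2% to 29.7%. These values had been processed before deposit, which can make levels alike, so this is no check of the arrays. The log2 ratio of 3′ to 5′ actin signal was 0.80 on GATA1 array A at 42 h and 0.38 to 0.55 on the others. Its part in the result was not tested. The single Gata1 probe set read 2815, 2864 and 3329 on vector arrays A, B and C and 2311, 2257 and 2435 on GATA1 arrays A, B and C, a difference of -0.36 ± 0.11 (SE, log2) with an adjusted p of 0.227. It was bright in cells labelled Gata1-negative and no brighter with the construct. Where its probes lie relative to the defect and to the construct is unstated in the labels, and it therefore cannot serve as a check of the groups. Every direction below rests on the labels. Of the markers of the line, all 6 measured progenitor markers exceeded the array median on at least 1 array at 18 h. So did 5 of 6 erythroid markers, but Slc4a1 among them was dim, with vector and GATA1 means of 10.042 and 9.559. The median is near the bottom of the scale, so exceeding it does not by itself show expression. Alas2, the erythroid enzyme that starts heme synthesis, was at the bottom of the scale in both groups (3.22 and 3.20). Of the mast cell markers only Cpa3 was above the median on any 18 h array, and Ms4a2, Fcer1a, Tpsb2 and Mcpt8 were not. The same held for Elane, Ltf, Ngp, Camp and S100a8 of 6 neutrophil markers, for all 3 measured lymphoid markers and for all 5 stromal markers. It also held for Adgre1 and Cd14 of 4 macrophage markers and for Prg2 and Epx of 3 eosinophil markers. The remaining macrophage and eosinophil markers were dim, with vector and GATA1 means of 20.8 and 20.6 (Csf1r), 15.9 and 10.4 (Cd68) and 10.6 and 8.79 (Il5ra). The remaining neutrophil marker, Mpo, was brighter, with means of 82.4 ± 39.0 and 62.7 ± 30.8 (SD).

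Of 10759 genes tested, 199 passed an adjusted p of 0.05 at 18 h, which is 1.85% of them. Of these, 118 were higher in GATA1 cells (1.10%) and 81 were lower (0.753%). The change is the difference of mean log2(intensity + 16), tested with limma and adjusted over all genes by the method of Benjamini and Hochberg. A gene past that threshold is said below to have risen or fallen. At least 2-fold changes were found for 67 genes, 47 of them rises and 20 falls. At least 4-fold changes were found for 6 genes, namely Hbb-y, Thbs1, Klf1, Tmem184a and Il1b as rises and Clec4e as a fall. The median rise was 0.81 and the median fall -0.70, against a median of -0.01 over all genes. All 199 genes had the GATA1 arrays on one side of the vector arrays, as had 1659 of all genes tested, or 15.4%. Without adjustment, 1058 genes had a p under 0.05, where 5% of the genes would be 538.

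**Figure D1:**
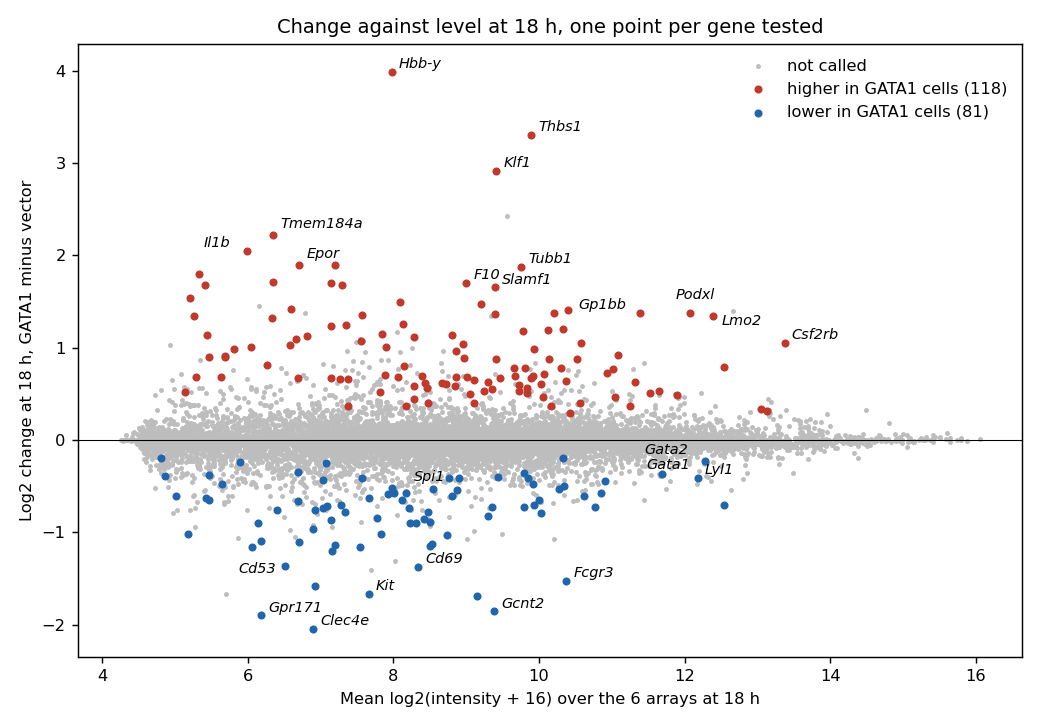
Log2 change at 18 h (GATA1 minus vector, vertical axis) against the mean log2(intensity + 16) over the 6 arrays (horizontal axis), one point per gene tested. Red points are the 118 genes that rose, blue points the 81 that fell, and grey points the others; Hbb-y, Thbs1 and Klf1 stand highest, and Clec4e, Gpr171 and Gcnt2 are the lowest of the labelled genes.

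Klf1 and Epor, a regulator and a receptor of the red cell line, rose at 18 h. Klf1, a zinc finger activator of erythroid genes, read 168, 228 and 323 on the vector arrays and 1907, 1916 and 1752 on the GATA1 arrays. Every GATA1 array was thus more than 5 times the highest vector array, and the change was 2.92 ± 0.19 (adjusted p = 2.64e-04). Klf1 was the only one of 22 tested Kruppel-like and erythroid factors that rose, and the median of that list was 0.04. With the replicate letter as a block, Bcl11a (0.73 ± 0.13) and Klf16 (0.34 ± 0.07) rose as well, giving 3 of 22. Over all 10759 genes tested, that fit called 188 higher and 167 lower. Those are the totals to set beside the block counts here and below. Epor, the receptor through which erythropoietin sustains red cell precursors, read 35.5, 25.4 and 59.2 and 198, 169 and 192, a rise of 1.89 ± 0.24 (adjusted p = 0.00364).

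Of 5 tested globin genes and chaperones, 1 rose. Hbb-y read 30.7, 23.7 and 120.4 in the vector arrays and 1640.3, 673 and 874 in the GATA1 arrays, a rise of 3.99 ± 0.49 (adjusted p = 0.00352). Vector array C was the highest of its group, GATA1 array A was the highest of all, and the groups did not overlap. The second probe set for Hbb-y rose by 3.66 ± 0.54 (adjusted p = 0.0179). Both probe sets are of a class that can also bind related sequences, so other beta-like globins may contribute to their signal. Hbb-bh1, the other embryonic beta-like globin, read 128, 220.2 and 1015 and 1727, 1090.0 and 2809. Its vector array C came close to GATA1 array B, and its difference of 2.43 ± 0.73 did not pass (adjusted p = 0.196). The median of the 5 genes was 0.00.

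Of 19 tested genes of heme synthesis and breakdown 4 rose and 0 fell, with a median of 0.25. Cpox, which makes protoporphyrinogen in the mitochondrion, read 625, 707 and 1217 on the vector arrays and 2109, 1736 and 2838 on the GATA1 arrays. Array C was the highest in both groups, and the change was 1.41 ± 0.28 (adjusted p = 0.0407). Ppox, the next enzyme of the pathway, rose by 0.66. Alad, which joins the first precursors into porphobilinogen, rose by 0.62 from 2058, 2058 and 2015 to 3523, 3171 and 2819, and Abcb6, a porphyrin transporter, by 0.69. Urod, which acts just before Cpox, differed by 0.40 (adjusted p = 0.131), and with the letter as a block it passed (0.40 ± 0.05, adjusted p = 0.00776), giving 5 of 19. Of 15 iron genes 2 rose by small amounts, with a median of 0.03 for the list. Tfrc, the transferrin receptor, read 7517, 6933 and 8211 and 9545, 8967 and 10171 (0.34 ± 0.07, adjusted p = 0.0487), and Glrx5, a glutaredoxin of iron-sulfur cluster assembly, rose by 0.31. Slc11a2, the iron transporter DMT1, rose with the letter as a block (0.49 ± 0.08, adjusted p = 0.0195), giving 3 of 15. The calls of Cpox and Tfrc ended without any one of the 18 h arrays other than vector replicate C (adjusted p up to 0.1501 and 0.162), that of Glrx5 without any one of the 6 (up to 0.153), that of Ppox without any but GATA1 B (up to 0.0863) and that of Alad without any but GATA1 C (up to 0.0816). The second probe set of Tfrc did not pass either (adjusted p = 0.9997).

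Red cell membrane and surface genes made up the list with the most rises, 7 of 23 tested with 0 falls, and a median of 0.20. Icam4 read 77.5, 107 and 128 on the vector arrays and 308, 276 and 280.3 on the GATA1 arrays, a rise of 1.36 ± 0.19 (adjusted p = 0.00717). Cldn13, a claudin of mouse erythroid cells, read 7.72, 7.51 and 7.88 and 123, 30.6 and 51.8. The vector arrays were at the bottom of the scale, so the size of the rise (1.68 ± 0.30) depends on the value of 16 added before taking the logarithm. Below the array median in vector cells, Cldn13 entered the test, and the count of 7, only through its level in GATA1 cells. Tmod1, the tropomodulin that caps actin in the membrane skeleton, read 357, 307 and 287 and 683, 612 and 601. Its rise of 0.96 ± 0.12 (adjusted p = 0.00418) was the only one of the 199 calls that held under every alternative setting and with each array left out. Mpp1, the palmitoylated skeleton protein p55, had one of the smallest spreads, with 583, 609 and 612 against 1089, 1003 and 1050.2 (0.78 ± 0.04, adjusted p = 6.52e-05). The others were Slc14a1, the urea transporter that carries the Kidd antigens (1.178), Mfsd2b, a sphingosine 1-phosphate exporter (0.88), and Gypc, glycophorin C (0.77). Leaving out 1 array ended the calls of Cldn13 (any vector array or GATA1 C, adjusted p up to 0.0922), Slc14a1 (vector A, vector B, GATA1 B or GATA1 C, up to 0.0670) and Mfsd2b (any but vector C, up to 0.0805).

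Other red cell genes rose outside the lists, and they were picked out after their values were seen. Smim1, which determines the Vel blood group, read 108, 119.8 and 115 and 266, 277 and 231, a rise of 1.07 ± 0.10 (adjusted p = 0.00169). Ache, the acetylcholinesterase of the red cell surface, rose by 0.98 and Ampd3, the AMP deaminase of red cells, by 0.69. Add3, an adducin of the membrane skeleton, rose by 0.89. The call of Ache ended without any one of the 18 h arrays (adjusted p up to 0.1495), and that of Add3 without vector B, GATA1 A or GATA1 B (up to 0.0619).

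Some platelet genes rose as well. Of 16 tested granule genes 2 rose and 0 fell (median 0.21), and of 24 receptor and cytoskeleton genes 3 rose and 0 fell (median 0.17). Thbs1, the thrombospondin of alpha granules, read 334, 178 and 389.8 on the vector arrays and 5363, 1954 and 2517 on the GATA1 arrays, a rise of 3.31 ± 0.39 (adjusted p = 0.00318). GATA1 array A was more than 2 times either other GATA1 array, while the lowest GATA1 array was still 5 times the highest vector array. Sparc, a matrix protein stored in the same granules, read 58.5, 31.1 and 43.0 and 137, 174 and 121 (1.421 ± 0.25, adjusted p = 0.0213). Leaving out any one of vector B, vector C, GATA1 A or GATA1 B ended that call (adjusted p up to 0.0911).

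Tubb1, the beta-tubulin of the platelet marginal band, read 427, 389 and 496 against 2095, 1461 and 1450.2 (1.88 ± 0.19, adjusted p = 0.00178). Gp1bb, a subunit of the von Willebrand factor receptor, read 1447, 1986 and 1549 against 4759, 4717 and 3557 (1.38 ± 0.17, adjusted p = 0.00352). P2ry1, an ADP receptor of platelets, rose by 0.69 at a low level, a call that ended without vector A or vector C (adjusted p up to 0.0641). With the letter as a block, Pdgfb (1.06 ± 0.20) and Plek (0.29 ± 0.05) joined the granule genes and F2rl2 (0.77 ± 0.15) and Fermt3 (0.32 ± 0.06) the receptor genes, giving 4 of 16 and 5 of 24. Pf4, platelet factor 4, was already bright, at 8869.8, 6603 and 8876 and 13266, 8746 and 10665, and did not pass (adjusted p = 0.398). Vwf read 5.52, 5.48 and 5.33 and 52.6, 21.8 and 16.7 and did not pass either (adjusted p = 0.174). For Vwf every GATA1 array lay above the vector arrays, and for Pf4 the ranges overlapped.

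**Figure D2:**
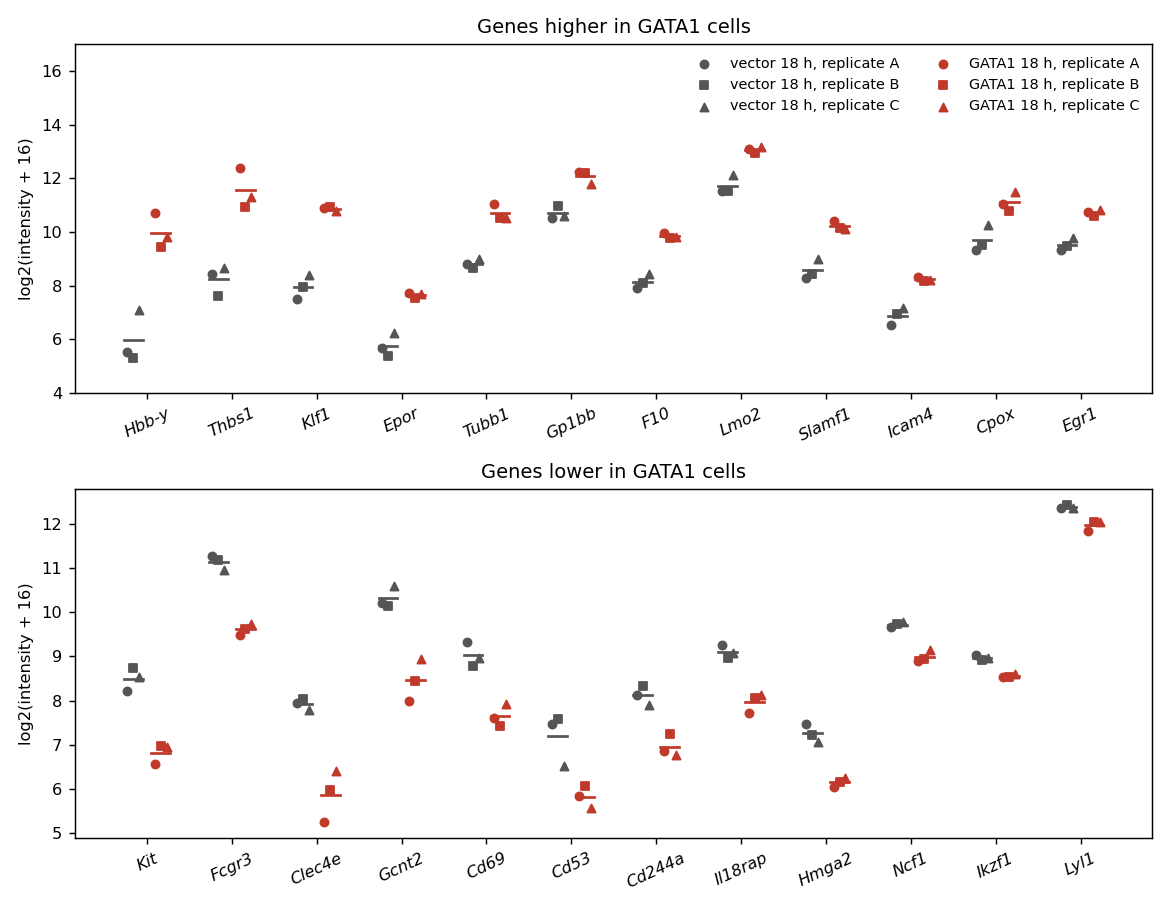
Log2(intensity + 16) of 24 genes on each 18 h array, 12 that rose (top) and 12 that fell (bottom). Grey symbols are vector arrays, red symbols GATA1 arrays, shapes give the replicate letter and short lines the group means (n = 3); in all 24 genes the arrays of the groups do not overlap.

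Of the complex of SCL and LMO2 with its partners, 2 of 17 tested genes rose and 1 fell, with a median of -0.02. Lmo2, the bridging subunit, read 2896, 2944 and 4394 on the vector arrays and 8673, 7868 and 9098 on the GATA1 arrays, so it rose by 1.35 ± 0.19 from an already high level (adjusted p = 0.00738). Gfi1b, a repressor that GATA1 works with, read 894, 881 and 1093 and 1885, 1541 and 1527 (0.78 ± 0.10, adjusted p = 0.00352). Lyl1, a basic helix-loop-helix factor close to SCL, fell from 5242, 5498 and 5257 to 3616, 4222 and 4215 (-0.41 ± 0.08, adjusted p = 0.0335). That small call ended without any one of the 18 h arrays (adjusted p up to 0.122). With the letter as a block, Id2 (-1.05 ± 0.17) and Id1 (-0.68 ± 0.10), inhibitors of E proteins, fell too, giving 3 falls of 17.

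The GATA factors and FOG partners did not pass: 0 of 4 tested by limma, 1 of them with an unadjusted p under 0.05 and 0 with the replicate block. Gata2, the GATA factor of progenitors, read 2109, 2551 and 3900.4 and 2036, 2038 and 3418, and its change of -0.19 had a 95% interval from -0.88 to 0.50. Array C was the highest in both groups, and the ranges overlapped. Zfpm1 read 1866, 3432 and 3040.5 and 2803, 4348 and 4402, with an interval from -0.18 to 1.14 around 0.48. Spi1, which encodes the myeloid factor PU.1, read 283, 377 and 329 and 168, 253 and 282. All 3 GATA1 arrays of Spi1 lay just below the vector arrays, and the interval ran from -1.03 to 0.05 (adjusted p = 0.600).

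Stem and progenitor regulators moved both ways, with 2 rises and 2 falls among 16 tested and a median of -0.07. Lmo2 is one of the rises, and Slamf1 (CD150), a surface receptor of stem cells and megakaryocyte progenitors, is the other, at 295, 332 and 490.5 and 1346, 1121 and 1088 (1.65 ± 0.19, adjusted p = 0.00311). Kit, the receptor for stem cell factor, read 283, 411 and 354 on the vector arrays and 78.5, 109 and 108 on the GATA1 arrays. All 3 letters showed nearly the same fall, and the change was -1.67 ± 0.21 (adjusted p = 0.00372). A second Kit probe set was dim, at means of 36.8 and 20.3, and did not pass (adjusted p = 0.830). Ikzf1, the lymphoid regulator Ikaros, fell by a small amount from 506, 468 and 481 to 354, 355 and 373 (-0.41 ± 0.06, adjusted p = 0.00936). Its call ended without GATA1 replicate A (adjusted p = 0.0502) and in the second probe set (adjusted p = 0.974). Hmga2, a chromatin protein of fetal progenitors, fell by 1.10 on the log2 scale, from 163, 134 and 119 to 50.5, 55.5 and 60.8.

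Among 27 tested cytokine receptors and JAK-STAT genes, 2 rose and 3 fell, with a median of -0.07. Epor and Kit, described above, moved in opposite directions. Csf2rb, the beta chain common to the receptors for IL-3, IL-5 and GM-CSF, read 5743, 6707 and 10314 and 15134, 14785 and 15878, a rise of 1.05 ± 0.20 (adjusted p = 0.0344). The vector arrays varied more than the GATA1 arrays here. Its call ended with the letter as a block (adjusted p = 0.05003) and without any one of the 18 h arrays other than vector C (adjusted p up to 0.127), and its second probe set did not pass (adjusted p = 0.343). Socs3, an inhibitor of cytokine signalling, fell from 127, 111 and 106 to 56.7, 64.2 and 79.3 (-0.67 ± 0.12, adjusted p = 0.0239), and Ifnar1, a chain of the type I interferon receptor, fell by 0.25 on the log2 scale. Without vector A, vector B, GATA1 A or GATA1 B the calls of Socs3 (adjusted p up to 0.102) and Ifnar1 (up to 0.152) ended. With the letter as a block the interleukin 4 receptor chain Il4ra (-1.32 ± 0.20), Pim2 (-0.64 ± 0.08) and Ptpn6 (-0.44 ± 0.08) fell and Stat5b (0.52 ± 0.09) rose, but Csf2rb and Ifnar1 (adjusted p = 0.0513) did not pass, giving 2 rises and 5 falls.

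Several of the largest falls were those of surface receptors of myeloid and lymphoid cells. Fcgr3, a low-affinity receptor for IgG, read 2450.4, 2307 and 1981 on the vector arrays and 699.6, 775 and 835 on the GATA1 arrays, a change of -1.52 ± 0.13 (adjusted p = 0.00124). It was the only one of 20 Fc receptor and ITAM signalling genes that passed, and the median of the list was -0.15. Clec4e (Mincle), a C-type lectin that senses microbial glycolipids, fell from 229.6, 249 and 206 to 22.2, 47.0 and 68.7 (-2.05 ± 0.23, adjusted p = 0.00255), although its second, dim probe set did not pass (adjusted p = 0.592). Cd69, an early activation antigen of the same family, fell from 623, 424 and 483 to 179, 156 and 226 (-1.37). Siglecf, a sialic acid receptor of eosinophils, rose instead, from 575, 420.5 and 471 to 1158, 758 and 845 (0.88 ± 0.17, adjusted p = 0.0368). Of the 6 tested lectins and Siglecs, 1 thus rose and 2 fell. Without any one of vector B, vector C, GATA1 A or GATA1 C the call of Siglecf ended (adjusted p up to 0.134).

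Further immune receptors fell. Cd244a (2B4), a SLAM family receptor, read 264, 306 and 225 and 101, 136 and 93.2 (-1.16 ± 0.15, adjusted p = 0.00452), so that in the list of SLAM and lymphocyte receptors 1 of 11 fell and 1, Slamf1, rose. With the letter as a block Ly9 (-0.80 ± 0.11) fell as well. Il18rap, the accessory chain of the IL-18 receptor, fell from 593, 484 and 521 to 195, 252 and 262 (-1.12 ± 0.12). Among 14 tetraspanins 2 fell: Cd53, a leukocyte member, from 162, 176 and 75.8 to 41.5, 50.8 and 31.9 (-1.36), and Cd81 by 0.22 on the log2 scale. Tspan13 fell with the letter as a block (-0.48 ± 0.07, adjusted p = 0.00974), giving 3 of 14. Gpr171, an orphan G protein-coupled receptor, fell from 146, 189 and 67.3 to 15.6, 26.5 and 23.6 (-1.90 ± 0.30). Vector array C was the lowest of its group for both Cd53 and Gpr171. Single arrays ended 3 of these calls: vector A or GATA1 A that of Gpr171 (adjusted p up to 0.0728), any but vector C that of Cd53 (up to 0.135), and any but GATA1 C that of Cd81 (up to 0.154).

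Some enzymes and signalling genes fell too, several of them of myeloid cells. Gcnt2, the enzyme that builds the branched I blood group antigen, read 1173, 1114 and 1527 and 240.4, 330.0 and 476 (-1.86 ± 0.22, adjusted p = 0.00312). It was outside the lists, that of red cell surface genes included. Ncf1, the p47 subunit of the NADPH oxidase, fell from 796, 829.6 and 859.6 to 459.8, 477 and 554 (-0.72 ± 0.10, adjusted p = 0.00627), the only one of 8 neutrophil genes that passed; its second probe set did not (adjusted p = 0.880). Of 8 eicosanoid genes 2 fell: Hpgds, the hematopoietic prostaglandin D synthase, from 146, 185 and 124 to 63.1, 74.8 and 70.4 (-0.96), and Alox5ap, the protein that presents arachidonate to 5-lipoxygenase, by 0.50 on the log2 scale. With the letter as a block Alox5ap did not pass (adjusted p = 0.0570), which left 1 of 8. Of 20 RGS and small G protein regulators 2 fell, Rgs2 from 330.1, 203 and 105 to 66.3, 48.9 and 48.2 (-1.58) and Rgs3 by 0.75. Without 1 array the calls of Hpgds (any but vector C, adjusted p up to 0.0957), Alox5ap (any but GATA1 C, up to 0.15) and Rgs2 (vector B or any GATA1 array, up to 0.121) ended.

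The mast cell list had 0 calls by limma among 5 tested members, 2 of them with an unadjusted p under 0.05, both lower, and its median was -0.74, the lowest of the lists without a call. Cpa3, the mast cell carboxypeptidase, read 2155, 1447 and 1559 and 888, 753 and 756. The groups did not overlap, but the adjusted p of 0.0618 missed the threshold, and with the letter as a block it passed (-1.07 ± 0.13, adjusted p = 0.00710). Slc18a2, a vesicular monoamine transporter, read 780.4, 622 and 889 and 916, 610.5 and 769, with no separation between the groups. In a sorted population, fewer cells of a type and less RNA per cell cannot be told apart.

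Of 12 tested cytokines and chemokines 2 rose. Il1b, an inflammatory cytokine, read 15.8, 15.7 and 13.9 on the vector arrays and 161, 96.6 and 92.4 on the GATA1 arrays, a rise of 2.05 ± 0.18 from near the bottom of the scale (adjusted p = 0.00133). Il1bos, annotated on the opposite strand of the same locus, read 52.4, 21.5 and 19.3 and 234, 116 and 81.7 (1.72 ± 0.35), but its call ended without any one of vector B, vector C, GATA1 A or GATA1 B (adjusted p up to 0.148). Tnfsf14 (LIGHT), a ligand of the tumour necrosis factor family, read 149.8, 226 and 220.3 and 446, 436 and 448 (1.12 ± 0.16, adjusted p = 0.00834). Its second probe set did not pass (adjusted p = 0.268).

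Immediate early genes split: of 21 tested, 1 rose and 2 fell, with a median of -0.09. Egr1, a zinc finger factor induced by growth signals, read 626, 691 and 862 and 1694, 1515 and 1798, a rise of 1.19 ± 0.17 (adjusted p = 0.00671). Jun, a subunit of AP-1, fell from 207, 164 and 157 to 86.8, 82.0 and 99.4 (-0.86 ± 0.18, adjusted p = 0.0445), and Ier3 from 481, 419 and 457 to 250.4, 222 and 303 (-0.78 ± 0.14, adjusted p = 0.0210). The call of Jun ended with the letter as a block (adjusted p = 0.0630), leaving 1 fall, and without any one of the 18 h arrays (up to 0.163), and that of Ier3 without any but GATA1 C (up to 0.0912). Dusp10, a phosphatase of stress kinases, rose by 0.81 among 10 ERK phosphatases and Sprouty genes. The interferon list of 19 had 1 rise and 1 fall and a median of -0.12. Ifi47, an interferon-induced GTPase, went from 1037, 1017 and 1143 to 2111, 1897 and 1921 (0.88 ± 0.13), and Irf1, an interferon regulatory factor, from 139, 138 and 133 to 89.9, 93.6 and 107 (-0.43 ± 0.08). Single arrays ended the calls of Dusp10 (any but vector B, adjusted p up to 0.165) and Irf1 (any but GATA1 C, up to 0.131).

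**Figure D3:**
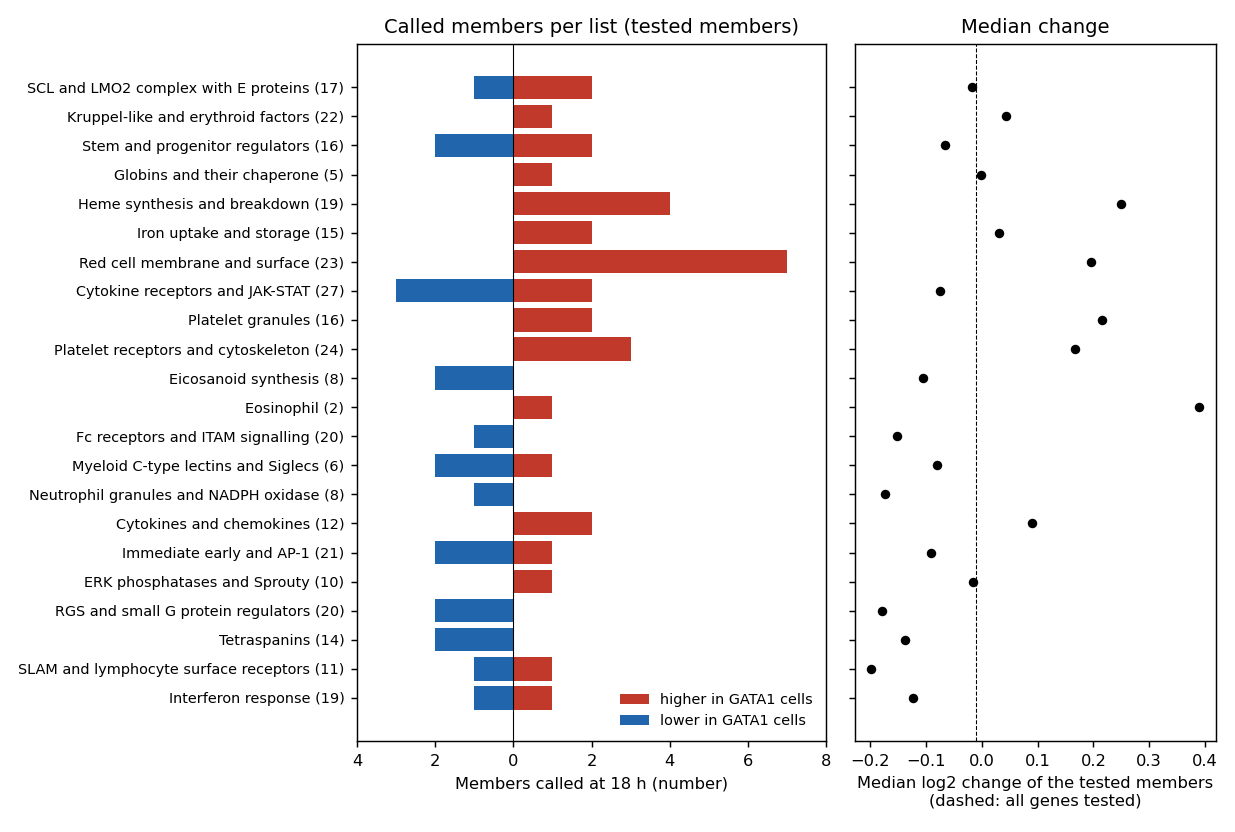
The 22 gene lists with at least 1 gene past the threshold. The left panel counts members that rose (red, to the right) and fell (blue, to the left), with the number of tested members in brackets after each name; the right panel gives the median log2 change of the tested members, with a dashed line at the median of all genes, -0.01.

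The remaining 19 of 41 lists had 0 genes past limma's threshold. They hold 281 tested genes. Of these, 33 had an unadjusted p under 0.05, against 1058 of all 10759 genes tested. With the letter as a block 8 of them passed, against 355 of all genes tested. Among these lists were DNA replication and mitosis (37 tested, median 0.02), ribosome biogenesis and MYC targets (24, 0.05), cyclin D with CDK inhibitors and RB (24, 0.15), the BCL2 family (14, -0.01), p53 targets (16, 0.06), autophagy (22, -0.05), glycolysis (16, 0.00), cholesterol synthesis (16, -0.10) and heat shock proteins (12, 0.04). The replication clamp gene Pcna read 26429, 27212 and 25977 and 27156, 26156 and 25957, and its change had a 95% interval from -0.09 to 0.08. Cdkn1a, the p21 inhibitor of CDKs, read 3499, 3392 and 3263 and 3340.2, 4087 and 3323, with an interval from -0.23 to 0.38. Prdx2, an abundant peroxiredoxin of red cells, read 12179, 9944 and 11374 and 14094, 11484 and 13331; the GATA1 array was the higher in each letter, but the ranges overlapped and the adjusted p was 0.460.

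The 2 brightest members of each of these lists are given as mean intensity ± SD (n = 3) in vector and then GATA1 cells. They were picked for brightness, so they do not show the level of their lists. Mcm5, a subunit of the replicative helicase, stood beside Pcna at 18978 ± 738 and 18766 ± 1346. Npm1, the nucleolar protein nucleophosmin, read 35437 ± 1129 and 35348 ± 515, and Ncl, nucleolin, 29725 ± 1956 and 31069.8 ± 2046. Cdk4, the partner of D-type cyclins, read 7108 ± 151 and 6975 ± 173, and Ccnd3, one of these cyclins, 5631 ± 878 and 6229 ± 658. Ccng1, a p53 target, read 12337 ± 1179.5 and 12733 ± 633. Mcl1, an inhibitor of cell death, read 6149 ± 428 and 5898 ± 549, and Bid, a promoter of it, 4286 ± 836 and 4509 ± 918. Becn1 and Map1lc3b, which serve early and later steps of autophagy, read 7234 ± 277 and 7264 ± 243 and 6305 ± 641 and 6121 ± 295. None of these genes was called, and the adjusted p of each was above 0.99. Ldha, lactate dehydrogenase A, read 20414 ± 1188 and 20931 ± 2413, and Pgk1, phosphoglycerate kinase, 16269.6 ± 1696 and 16129.7 ± 2677. Hmgcs1 and Idi1, enzymes of the mevalonate pathway, read 23742 ± 994 and 22826 ± 2141 and 23142 ± 2673 and 22724 ± 2442. Hspa8, the constitutive HSP70 chaperone, read 36685 ± 531 and 36312 ± 1464, and Hsp90aa1 33282 ± 162 and 34472 ± 1118. The metabolic and chaperone genes were not called either. Hdac2, a histone deacetylase, read 5048 ± 161 and 5099.5 ± 196, and Kdm1a, a histone demethylase that works with GFI1B, 4786 ± 108 and 4587 ± 182. Txn1, thioredoxin, stood beside Prdx2 at 19591 ± 803 and 19553 ± 636.

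In the lists of lineage factors and other cell types the 2 brightest members missed the threshold as well. Nfe2, a megakaryocyte and erythroid activator, read 6684 ± 33.3 and 7772 ± 432 (adjusted p = 0.344), and Fli1, an ETS factor of megakaryocytes, 6749.7 ± 955 and 6978 ± 333. Itga2b, the platelet integrin alpha IIb, read 3277 ± 443 and 3766 ± 55.8, and Itga6, integrin alpha 6, 3789.8 ± 565 and 3555 ± 688. Cebpg, a C/EBP factor and after Spi1 among the brightest of the myeloid factors, read 505 ± 69.5 and 496 ± 36.9. B2m and H2-D1, the light chain and a heavy chain of MHC class I, read 15836 ± 400.3 and 15812 ± 1081 and 5968 ± 1092 and 6098 ± 924. Nkg7, a granule protein of cytotoxic lymphocytes, read 164 ± 44.7 and 258 ± 36.4, and Cd79b, of the B cell receptor, 106 ± 33.7 and 81.3 ± 27.6. Pecam1, an adhesion molecule of endothelium and platelets, read 616 ± 98.1 and 723 ± 122, and Tie1, an endothelial receptor, 318 ± 105 and 240.4 ± 115. The 8 genes of the uncalled lists that passed only with the letter as a block were Perp (-1.07 ± 0.16), Cpa3 (given above), Cebpb (-0.50 ± 0.11), Cbfb (-0.24 ± 0.05) and Sqle (-0.18 ± 0.04) as falls, and Nkg7 (0.63 ± 0.09), Rb1 (0.27 ± 0.05) and Top2a (0.25 ± 0.05) as rises.

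Only 50 of the 199 genes belong to a list, and several of the largest changes are among the other 149. Tmem184a, a transmembrane protein gene, read 20.2, 12.9 and 34.9 and 176, 123 and 188 (2.22 ± 0.23, adjusted p = 0.00178). F10, coagulation factor X, read 223, 256 and 332 and 974, 861 and 890.3 (1.71 ± 0.16, adjusted p = 0.00168). Tmcc2 read 4.02, 5.58 and 7.54 and 81.2, 64.6 and 38.6 (1.80 ± 0.17). Its second probe set, with means of 4.35 in vector and 54.5 in GATA1 cells, rose by 1.75 ± 0.16. Padi3, a peptidylarginine deiminase, read 42.3, 40.1 and 119 and 197, 265 and 363 (1.90 ± 0.38, adjusted p = 0.0407). Parvb, a parvin that links integrins to actin, read 5.94, 5.78 and 5.47 and 77.3, 26.1 and 48.4. Tmcc2 and Parvb were below the array median in vector cells, so both entered the test only through their level in GATA1 cells. Single arrays ended the calls of Padi3 (any but vector C, adjusted p up to 0.153) and Parvb (any but GATA1 B, up to 0.0791), and the second probe set of Parvb stayed at the bottom of the scale.

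Further rises outside the lists were picked out after their values were seen. The tyrosine kinase gene Tec read 163, 129.9 and 145 and 490.4, 455 and 382 (1.497 ± 0.16, adjusted p = 0.00183), and its neighbour on the chromosome, Slain2, rose by 0.93. Nt5e (CD73), the ectoenzyme that makes adenosine, read 249, 424 and 368 and 974, 1059.6 and 889.9 (1.48). Podxl, a sialomucin of progenitors and platelets, was bright and rose from 1859, 2713 and 3753 to 6519, 7185 and 7109 (1.37), but lost the call without vector B or any GATA1 array (adjusted p up to 0.0605). In all, 7 pairs of called genes were direct neighbours among the genes tested, Il1b with Il1bos and Tec with Slain2 among them, and 6 of the pairs moved the same way. The exception was Emp3 (-0.40) beside Nomo1 (0.72), and the call of Emp3 ended without any one array but GATA1 C (up to 0.162). Some called genes would be neighbours in any order of the genes, since 1.85% of all genes tested were called. How many such pairs that share would give was not worked out, and clustering was not tested.

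Among the falls outside the lists, Shroom4, an actin-binding protein gene, read 665, 429.6 and 502 and 251, 242 and 192 (-1.15 ± 0.17, adjusted p = 0.00957). Bhlhe40, a helix-loop-helix repressor, fell from 217, 252 and 151 to 81.4, 95.1 and 73.3 (-1.14), although the call ended without any one array but vector C (adjusted p up to 0.131). Tespa1 fell from 101, 95.9 and 75.8 to 24.9, 36.6 and 41.8 (-1.09) and lost the call without vector A, vector B or GATA1 A (up to 0.0629). Tmem273 showed one of the tightest falls, 201, 207 and 191 against 69.4, 79.4 and 85.2 (-1.20 ± 0.07, adjusted p = 6.52e-05). Looked at after their values were seen, 3 of 5 tested Gimap genes, which encode GTPases of lymphocytes and lie in 1 cluster, fell. These were Gimap9 (from 1106, 1209 and 1051 to 660.0, 647 and 712, -0.72), Gimap6 (-0.63) and Gimap1 (-0.60), and the 5 changes ran from -0.72 to -0.24. The call of Gimap6 ended without any one of the 18 h arrays (up to 0.122). Other families were looked at in the same way, and Gimap had the largest share of falls. Falls were 2 of 10 tested Rgs genes, 1 of 3 Ms4a genes, 1 of 11 Mtmr genes and 2 of 36 Trim genes. Rises were seen only in Mtmr, with 2. Over all genes tested 0.753% fell.

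Most of the called genes were well above the bottom of the scale in both groups. Of the 118 rises, 8 had a vector mean under 16 and 31 under 100. Of the 81 falls, 4 had a GATA1 mean under 16 and 29 under 100. For the dimmest, such as Ces2g (7.80, 7.96 and 8.53 against 44.0, 38.2 and 55.1), Gnaz (14.7, 14.8 and 14.8 against 37.3, 34.7 and 29.1) and Sardh (10.7, 14.6 and 14.5 against 56.8, 51.4 and 38.2), the arrays separate clearly, but the fold depends on the value added before the logarithm.

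Arrays with the same letter deviated together, with correlations of 0.31 to 0.66 between a vector and a GATA1 array of the same letter and of -0.63 to 0.08 between different letters. With the letter as a block 355 genes passed, 188 higher and 167 lower; they include 189 of the 199, and 166 were added. That fit uses the letters across all 12 arrays, although the letter B array of GATA1 cells at 42 h did not deviate together with those at 18 h (correlations of -0.11 with vector and 0.05 with GATA1). With the letter taken within each time 330 passed, 166 of them among the 199, and with the letter in only the 6 arrays compared 9 passed, 8 of them among the 199. The differences were largest in letter A for 133 of the 199 genes, in B for 52 and in C for 14. The median difference of the rising genes was 0.94 in letter A, 0.83 in B and 0.74 in C, and that of the falling genes was -0.77, -0.74 and -0.57. A probe set for 18S ribosomal RNA (5′) read 8.32 and 9.30 (log2) on the letter A arrays at 18 h, 10.6 and 6.13 on B and 6.34 and 6.08 on C, vector first; its part in the result was not tested. The count was 116 without vector A, 116 without vector B, 101 without GATA1 A and 120 without GATA1 B, and 32 without the 4 arrays lettered A. With only the 6 arrays compared it was 54, of which 48 were among the 199, Klf1, Tubb1, Kit, Fcgr3, Il1b and F10 included. Among those that did not pass in that fit were Hbb-y (adjusted p = 0.0794), Thbs1 (0.0782), Epor (0.0547), Lmo2 (0.0715), Gp1bb (0.0576), Slamf1 (0.0576), Tmem184a (0.0507), Clec4e (0.0794) and Gcnt2 (0.0789). Each 18 h array could be left out without loss for 86 of the 199 genes.

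A second probe set was tested for 90 of the 199 genes, and 88 of these differed in the same direction while 25 also passed. Those of Thbs1 (3.40), Slamf1 (1.72), Gcnt2 (-1.90), Cpox (1.67) and Il18rap (-1.17) passed with changes close to those above. The other 65 did not pass. Besides the genes already mentioned, they include those of F10 (adjusted p = 0.0758), Sparc (0.0858), Rgs2 (0.0983), Muc13 (0.120), Socs3 (0.211), Nt5e (0.261), Mfsd2b (0.261), Jun (0.409), Slc14a1 (0.569), Podxl (0.702), and Gnaz and Ifnar1 (0.9997 each). Aebp2 and Kalrn were the genes whose second probe set differed in the other direction, by 0.03 and -0.08, within their standard errors of 0.08 and 0.19.

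At 42 h the same comparison found 187 of the 199 genes changed the same way, 1 changed the opposite way and 11 not past the threshold. At that time 2253 of all genes tested passed, or 20.9%. The medians went from 0.81 to 1.29 for the rising genes and from -0.70 to -1.24 for the falling ones. The change at 42 h minus that at 18 h was itself tested, and it passed for 504 of all genes, or 4.68%. Among the 199 it passed for 82. In 76 of them, 40 rising and 36 falling, the change went farther from 0 at 42 h, and in 6 it shrank or turned. Ces2g, a carboxylesterase, had the largest difference of the rising genes, at 1.35 and then 5.94. Sardh, a sarcosine dehydrogenase, and Gnaz, a G protein alpha subunit of platelets, went from 1.14 to 4.92 and from 0.69 to 3.94. Klf1 went from 2.92 to 4.05, and that difference did not pass (adjusted p = 0.0506).

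The 6 that shrank or turned include Egr1, which at 42 h read 628 ± 94.4 and 642 ± 116 (SD, n = 3) in vector and GATA1 cells. Its change went from 1.19 to 0.03 (adjusted p of the difference 0.0236). Siglecf turned from 0.88 to -0.77 (adjusted p of the difference 0.00509), the only gene called in opposite directions at the 2 times. Parm1, a mucin-like membrane protein gene, went from 0.71 to -0.39, Muc13, a mucin, from 0.51 to -0.08, Socs3 from -0.67 to 0.11 and Gpr19 from -0.24 to 0.11. Leaving out 1 array ended the 18 h calls of Parm1 (vector A, vector C, GATA1 A or GATA1 B, adjusted p up to 0.113), Muc13 (vector A, vector B, GATA1 B or GATA1 C, up to 0.0777) and Gpr19 (any, up to 0.133, and with the letter as a block 0.0508), and for Siglecf and Socs3 the arrays are named above. Gata2 and Spi1, which had not passed at 18 h, changed by -2.36 and -1.53 at 42 h; the difference between the times passed for Gata2 (adjusted p = 0.0227) and not for Spi1 (0.149).

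**Figure D4:**
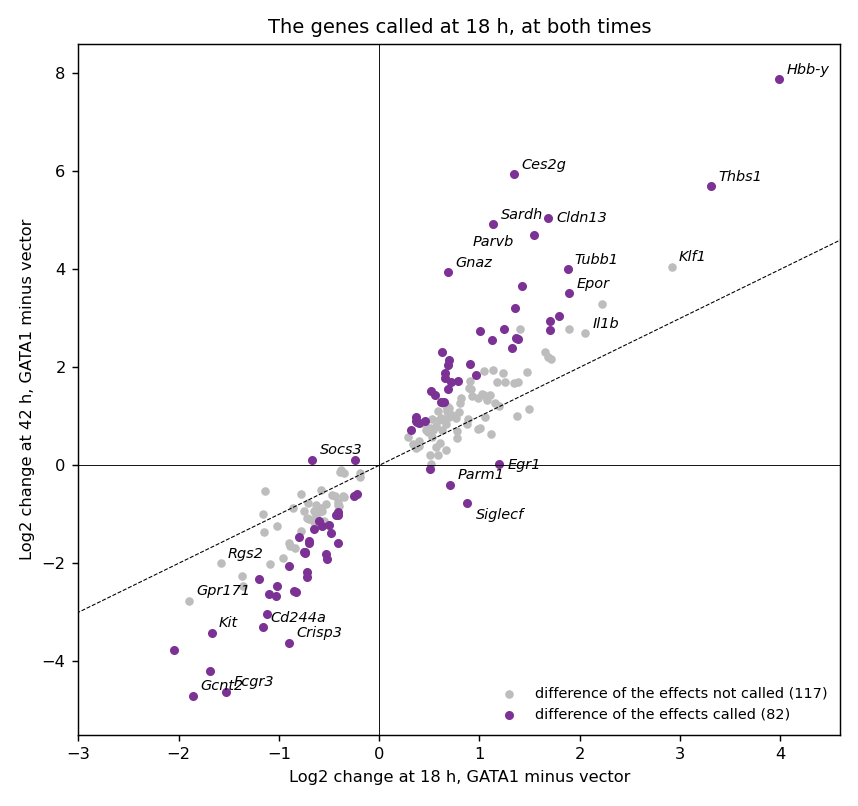
Log2 change (GATA1 minus vector) at 42 h against that at 18 h for the 199 genes called at 18 h. The dashed line marks equal changes, and purple points are the 82 genes whose change differed between the times; most purple points lie farther from 0 at 42 h, while Egr1, Siglecf, Parm1 and Socs3 lie near 0 or on the other side of it.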

How the data were processed

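RNA of G1ME cells was measured on 12 Affymetrix arrays of 45101 probe sets, 3 per group. Each probe set has 1 linear intensity per array, deposited by the authors. GCRMA and MAS5 are both named in the submitters' processing notes, but which of them gave these values is not stated, and the depth behind them is unknown. No intensity was shared between arrays for more than 0.0266% of probe sets.

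Here 34945 probe sets with 1 gene symbol named 18193 genes, 932 had several symbols and 9160 none. The probe set with the highest mean stood for its gene, and 10759 genes above the array median on at least 3 of 12 arrays were tested. A gene above the median only in the group where it is high could pass this filter. Differences of log2(intensity + 16) over all 12 arrays in 4 groups were tested in R 4.3.3 with limma 3.58.1. Tests were two-sided, with Benjamini-Hochberg adjustment over the genes tested and a threshold of 0.05. The fold understates changes of dim genes. The fit was tested on simulated data in which arrays of the same letter shared no deviation. That test therefore does not bear on the choice of a block.

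Letters pair the 18 h arrays, since every same-letter correlation exceeded 0.1, and the block is given where it changes a count of a list or the call of a gene described. The lists and members were chosen with earlier results of these data known. Values in every array are given for Gata1, Gata2, Spi1 and Zfpm1, for the 15 largest rises and 15 largest falls without clone-type names, and for up to 2 members per list and direction. One gene that this rule names is not reported here. A list without a call is illustrated by its 2 brightest members, and other called genes may be named by role. Hbb-bh1, Urod, Pf4, Vwf, Cdkn1a, Prdx2 and genes named only from the block fit were chosen after their values were seen. Alternatives covered the pseudocount, filter, normalization, block, weights, probe set and left-out arrays.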

Additional observations from a re-analysis of the deposited data

Results flagged for a closer look

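For 82 of the genes called at 18 h, the change at 42 h minus the change at 18 h passed limma's test (adjusted p under 0.05 over all genes tested). The values in brackets are that difference in log2 units, and a negative value is a lower change at 42 h.

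Of the genes that rose, those of red cells, heme and iron with a larger change at 42 h by this test were Hbb-y (3.89), Cldn13 (3.36), Icam4 (1.85), Alad (1.70), Epor (1.62), Abcb6 (1.47), Ampd3 (1.35), Ppox (1.23), Fam210b (0.998), Mpp1 (0.94), Tmod1 (0.88) and Glrx5 (0.41). Among genes of platelets and coagulation the difference was found for Gnaz (3.25), Thbs1 (2.38), Sparc (2.24), Tubb1 (2.13), Ltbp1 (1.43), F10 (1.24) and P2ry1 (0.87). The other rising genes were Ces2g (4.595), Sardh (3.78), Parvb (3.16), Reep6 (1.74), Kalrn (1.53), Inafm2 (1.24), Tmcc2 (1.24), Ssx2ip (1.20), Colec11 (1.17), Dnajb2 (1.13), Cited4 (1.07), 2610528J11Rik (1.06), Gas2l1 (0.97), Noct (0.88), Mtfp1 (0.68), Septin8 (0.65), Pgm2 (0.62), Agpat3 (0.53), Dnpep (0.51), Cyth3 (0.46) and Ppp2r1b (0.44).

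Of the genes that fell, the surface receptors and their relatives with a larger fall at 42 h by this test were Fcgr3 (-3.10), Cd244a (-2.15), Il18rap (-1.92), Kit (-1.75), Clec4e (-1.72), Pdcd1lg2 (-1.71), Tnfrsf13b (-1.27), Cd93 (-1.15), Ifnar1 (-0.37) and Cd81 (-0.36). Transcription and chromatin factors were Hmga2 (-1.52), Lyl1 (-1.18), Elk3 (-1.06), Trps1 (-0.85), Ikzf1 (-0.60) and Irf1 (-0.58). The other falling genes were Gcnt2 (-2.85), Crisp3 (-2.72), BC018473 (-2.50), Txndc12 (-1.77), 5430427O19Rik (-1.64), Coro2a (-1.55), Ncf1 (-1.45), Filip1l (-1.44), Myo1f (-1.39), Tmem273 (-1.13), Ptpn22 (-1.02), Rgs3 (-1.02), Fnbp1 (-0.90), Glipr1 (-0.88), Alox5ap (-0.72), Sash3 (-0.67), Cytip (-0.67), Trim13 (-0.64), Manba (-0.55) and Gimap1 (-0.54).

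The change shrank or turned at 42 h for Siglecf (-1.65), Egr1 (-1.17), Parm1 (-1.10), Muc13 (-0.59), Gpr19 (0.35) and Socs3 (0.78). Their levels at 42 h showed no call in the direction of 18 h.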

How the results depend on the processing

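The 199 calls at 18 h became 355 with the replicate block, 54 with only the 6 arrays compared, 119 without the filter on dim genes and 32 without the 4 arrays lettered A. They became 330 with the replicate block within each time and 9 with only the 6 arrays and the replicate block, alternatives added after the data were seen. Leaving out 1 array gave counts between 101 and 200. The 504 differences between the effects at 42 h and 18 h became 853 with the replicate block, 851 with the replicate block within each time and 320 with no filter, and between 324 and 539 without 1 array (324 without GATA1 18 h replicate B, 326 without GATA1 18 h replicate C). Counts stayed within 1.5 times under other pseudocounts, a stricter filter, quantile normalization and array weights. In the second probe set the direction reversed for Aebp2 (0.028) and Kalrn (-0.075). With no filter 18193 genes were tested, and with only the 6 arrays the spread rests on fewer arrays. In the other reduced fits the cause was not tested. No detection call was used here, so dim genes have no limit of their own.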
